A study of Mus musculus with 20 samples.

Results

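Oxidative phosphorylation genes were followed over 20 arrays of mouse brain RNA. The members were all probe sets annotated to 1 gene symbol beginning with Nduf, Uqcr, Atp5, Cox4, Cox5, Cox6, Cox7 or Cox8, or equal to Sdha, Sdhb, Sdhc, Sdhd or Cyc1. The rule uses names only and no measured value, and it gave 157 of the 22690 probe sets on the array and 85 of its 12394 gene symbols. A probe set is a group of short probes that read 1 stretch of a transcript, so several probe sets of a gene are not replicates of it. A further 8 probe sets that carry several symbols were left out. By complex, the members were 67 probe sets of 33 genes for complex I subunits, 6 probe sets of 5 genes for complex I assembly factors, 7 of 4 genes for complex II, 16 of 9 genes for complex III, 33 of 17 genes for complex IV and 28 of 17 genes for complex V.

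The samples came from 2 brain regions, cerebellum and forebrain, taken from mice of 2 genotypes, wild type and knock-in, at 2 ages. At 4 weeks each of the 4 combinations of genotype and region had 3 arrays, and at 11 weeks each had 2. Which allele was knocked in, and the strain and sex of the mice, are not in the labels, and replicates are not said to be separate mice. The p-values therefore cover only the spread between arrays, which may be technical. The older mice are called 11 weeks old in the descriptions of the samples, but 12 in their titles. On 7 of the 10 forebrain arrays the labels conflict over the region, and the region was then taken from the code in the title; on 1 of them, knock-in forebrain at 4 weeks replicate 3, the description also says cerebellum. Wild-type forebrain at 4 weeks has unanimous labels, as all cerebellar groups have.

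In oxidative phosphorylation, complexes I and II pass electrons from NADH and succinate to ubiquinone, complex III passes them on to cytochrome c, and complex IV reduces oxygen. Complexes I, III and IV pump protons across the inner mitochondrial membrane, and complex V, the ATP synthase, makes ATP as the protons return. Neurons depend on this pathway for most of their ATP. Most subunits are encoded in the nucleus. Several complex IV subunits exist as a ubiquitous form and a form known from muscle, testis or lung. Nuclear factors known to drive such genes include NRF1, GABPA, YY1 and the estrogen-related receptor ESRRA.

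The regions just upstream of 4 member genes are shown because they hold the motifs of these factors that were searched. Each sequence is the 250 bases before the gene's RefSeq start on assembly GRCm38.p6, written 5′ to 3′ on the gene's strand, with the matched motif in capitals.
Atp5j, chr16:84834977-84835226, minus strand, NRF1 core at position -147 and YY1 at position -88 from the start: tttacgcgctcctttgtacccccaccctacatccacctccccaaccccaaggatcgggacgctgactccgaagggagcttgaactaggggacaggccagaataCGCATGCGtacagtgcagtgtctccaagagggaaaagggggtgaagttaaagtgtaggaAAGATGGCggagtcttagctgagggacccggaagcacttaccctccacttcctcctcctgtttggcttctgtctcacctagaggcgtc
Ndufaf4, chr4:24897833-24898082, plus strand, NRF1 core at position -112: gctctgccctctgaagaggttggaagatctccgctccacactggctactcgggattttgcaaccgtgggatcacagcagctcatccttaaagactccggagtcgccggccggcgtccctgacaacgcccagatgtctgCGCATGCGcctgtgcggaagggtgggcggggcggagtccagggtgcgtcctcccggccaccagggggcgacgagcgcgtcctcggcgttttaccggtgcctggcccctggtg
Uqcrh, chr4:116075071-116075320, minus strand, GABPA at position -11: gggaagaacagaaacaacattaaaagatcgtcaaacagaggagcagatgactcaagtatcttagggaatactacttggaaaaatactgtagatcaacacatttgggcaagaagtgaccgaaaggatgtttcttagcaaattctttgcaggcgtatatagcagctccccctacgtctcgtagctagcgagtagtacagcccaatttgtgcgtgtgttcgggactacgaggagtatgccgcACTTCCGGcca
Atp5g3, chr2:73911327-73911576, minus strand, ESRRA at position -52: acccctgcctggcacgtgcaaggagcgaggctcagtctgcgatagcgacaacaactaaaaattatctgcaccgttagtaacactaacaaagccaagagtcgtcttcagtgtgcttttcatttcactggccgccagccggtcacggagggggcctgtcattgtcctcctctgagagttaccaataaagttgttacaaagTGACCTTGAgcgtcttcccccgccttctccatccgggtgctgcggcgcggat
The search used windows of 300 bases, from 250 before to 50 after the start, on both strands, and 70 member genes had such a window. The NRF1 core CGCATGCG, a palindrome, was in 10 of the 70 genes (14.3%), against 4.30% of the 7369 genes tested that have a window. YY1's AAGATGGC was in 9 (12.9%, against 5.33%), GABPA's CCGGAAGT in 5 (7.14%, against 8.78%) and ESRRA's TCAAGGTCA in 2 (2.86%, against 0.353%). No matches overlap in the sequences printed, and a match is a description of letters, not a site.

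Regional identity was clear in the arrays themselves. Pcp2, a Purkinje cell gene, read 27505 to 46095 on the 10 cerebellar arrays and 83.9 to 159 on the 10 forebrain arrays with probe set 1419084_a_at. Camk2a, a forebrain neuron gene, read 13.8 to 385 and 4828 to 14567. Intensities are the deposited linear values, and the median over an array lay between 979 and 1180. The ratio of the 3′ to the 5′ control probes of Gapdh, a sign of RNA quality, lay between 0.744 and 0.903. A probe set was tested when it read above the array's 40th percentile (605.5 to 774.8) on at least 2 arrays, which kept 15627 probe sets and 148 members of 84 genes. The 9 members not kept belong to Ndufa12, Ndufab1, Ndufb9, Uqcrq, Cox5b, Cox7c, Cox8a, Cox8b and Atp5g2, and Cox8b, the muscle form of subunit 8, was the only gene left with none: it read 47.1 to 337.

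The first comparison set the cerebellum against the forebrain, averaged over genotype and age. Of the 148 members, 49 were higher in the cerebellum and 13 lower, at an adjusted p under 0.05 in limma with Benjamini-Hochberg adjustment over all probe sets tested. That is 41.9% of the members called, against 59.7% of all 15627 probe sets (32.5% higher and 27.2% lower). The median log2 difference of the members was 0.10, against 0.03 over all probe sets, and 104 of the 148 lay above 0. Called differences were small: 56 of the 62 (90.3%) were under 0.5 on the log2 scale, against 51.1% of all called probe sets. All differences are on the log2(intensity + 16) scale, with the model's standard error (SE). In bulk RNA such a difference cannot be told apart from one in the numbers of cells of a type.

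**Figure D1:**
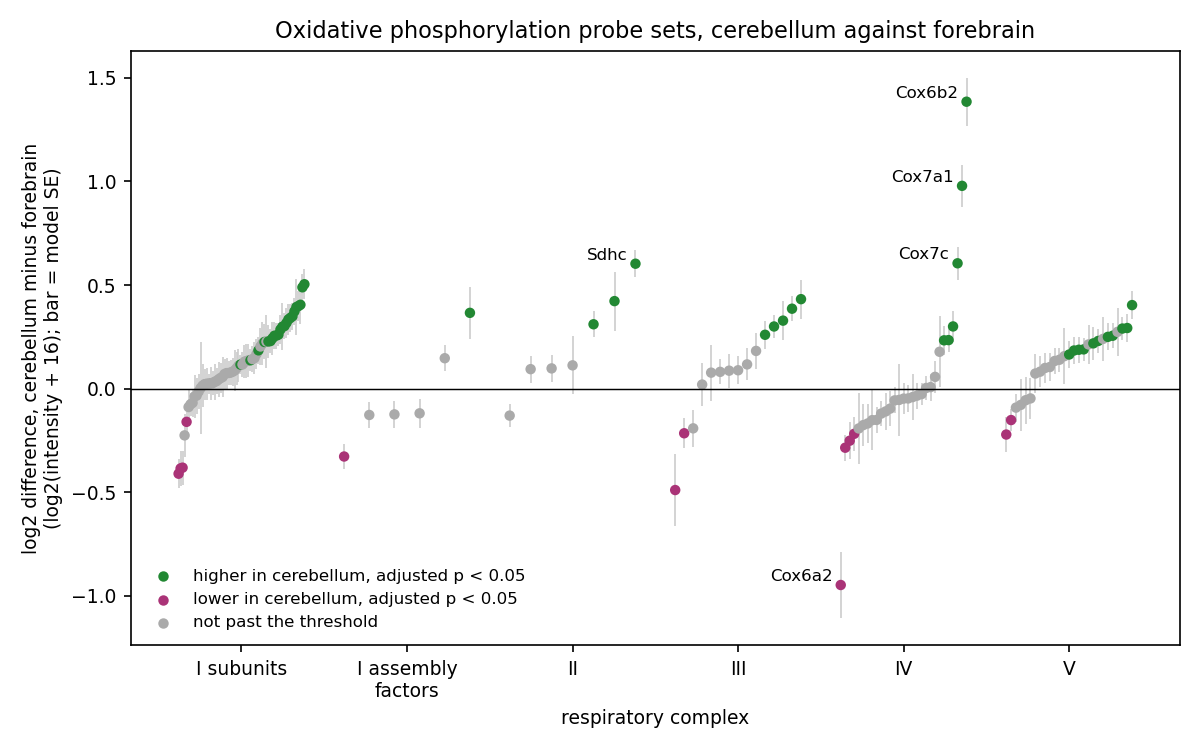
Log2 difference, cerebellum minus forebrain, of the 148 members by complex, with bars of 1 model SE; called members higher in the cerebellum are green, called lower ones purple and the others grey. Most points lie within 0.5 of 0, and Cox6b2 (1.39), Cox7a1 (0.98) and Cox6a2 (-0.95) stand furthest out.

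By complex, called members were mostly on the cerebellar side, with complex IV the most even. The counts are set beside 32.5% of all probe sets called higher and 27.2% called lower. For the members together, the 49 higher of 148 were near the former share, and the 13 lower were well under the latter. Complex I subunits had 23 higher and 4 lower of 64 (median 0.12), complex II 3 and 0 of 7 (0.11), and complex III 5 and 2 of 15 (0.09). Complex V had 11 and 2 of 27 (0.16, the highest median of the complexes), and complex IV 6 and 4 of 29 (-0.05). With cyclic loess in place of the deposited scaling, the complex IV median was 0.04, above 0. The 6 assembly factor probe sets had 1 higher and 1 lower.

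In complex I, the proton-pumping NADH dehydrogenase, the membrane-arm subunit Ndufc2 and the accessory subunit Ndufs4 were the furthest on the cerebellar side. Ndufc2 (1416366_at) read 12696 to 19436 in the cerebellum, with a median of 14676, and 9228 to 14206 in the forebrain, with a median of 10315. The cerebellar arrays were mostly the higher ones and the ranges overlapped; the log2 difference was 0.50 (SE 0.07, limma adjusted p = 2.11e-05), and a further probe set gave 0.37. Ndufs4 (1418117_at) read 1735.1 to 2473 in the cerebellum (median 1997) and 1197 to 1734.9 in the forebrain (median 1382). No cerebellar array was below a forebrain array, by the narrowest of margins, with a log2 difference of 0.49 (SE 0.07, limma adjusted p = 1.03e-05). Of the other Ndufs4 probe sets, 1448959_at was 0.30 higher and called, and 1438166_x_at gave 0.01 and was not.

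Among the electron-input subunits of complex I, Ndufs1, an iron-sulfur subunit, was higher by 0.26 (SE 0.06, limma adjusted p = 0.000901). Ndufv2 and Ndufs7, also iron-sulfur subunits and named here after their values were seen, were higher too: Ndufs7 by 0.33 and 0.29, and Ndufv2 by 0.39 (SE 0.13) and 0.12, with a further Ndufv2 probe set at 0.08 without a call. Ndufv1, which binds NADH, gave 0.02, 0.08 and 0.02 with its 3 probe sets, none of them called. Ndufab1, the mitochondrial acyl carrier protein, was higher by 0.26 with 1428159_s_at, and its 1428160_at gave 0.20 without a call. None of the 6 probe sets of Ndufs8, an iron-sulfur subunit and the gene with the most probe sets, passed, and they ran from -0.23 to 0.11. Ndufb8 gave 0.13 without a call.

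The complex I members lower in the cerebellum were led by Ndufb9 and Ndufb1, both of the membrane arm. Ndufb9 (1452184_at) read 21377 to 30401 in the cerebellum (median 25790) and 30017 to 40900 in the forebrain (median 32868). The ranges met only at their edges, and Ndufb9 was lower by 0.41 on the log2 scale in 1 probe set and by 0.38 in the other, both called (log2 differences -0.41 and -0.38; SE 0.07 and 0.08). Ndufb1 gave -0.39 (SE 0.09). Among the assembly factors, Ndufaf7, a methyltransferase, gave -0.33 (limma adjusted p = 0.000271). Ndufaf4 was higher by 0.37 with 1435333_at and gave 0.15 without a call with 1427997_at.

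In complex II, succinate dehydrogenase, the called members were probe sets of the membrane anchors Sdhc and Sdhd. Sdhc (1448630_a_at), an anchor, read 8139 to 10055 in the cerebellum (median 9312) and 4683 to 7777 in the forebrain (median 6197). Every cerebellar array was above every forebrain array, a 1.52-fold difference (log2 0.60, SE 0.07, limma adjusted p = 7.64e-07), and 1435986_x_at was higher by 0.31. Sdhd, the other anchor, was higher by 0.42 (SE 0.14, limma adjusted p = 0.0178) with 1428235_at and gave 0.11 without a call with 1437489_x_at. Sdha, the flavoprotein, gave 0.09 and 0.10, and Sdhb, the iron-sulfur protein, gave -0.13 (limma adjusted p = 0.0532); none of these was called.

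In complex III, the electron-carrying members Cyc1 and Uqcrfs1 were higher in the cerebellum. Cyc1, cytochrome c1, read 19559 to 24147 in the cerebellum (median 20949) and 14190 to 17752 in the forebrain (median 15900). The ranges did not overlap, and the log2 difference was 0.39 (SE 0.06, limma adjusted p = 3.43e-05). Uqcrfs1, the Rieske iron-sulfur protein, was higher by 0.30 (limma adjusted p = 0.000212), and Uqcrh, the hinge protein whose upstream region is printed above, by 0.26. Uqcrb (1416337_at) was higher by 0.43, but its 1455997_a_at gave 0.09 without a call. The core proteins were not called: Uqcrc1 gave 0.18, and Uqcrc2 gave 0.12 and 0.08. Uqcrq was called lower with 1437134_at (-0.49, SE 0.17), which was above the percentile limit on 6 of the 20 arrays, while 1430326_s_at and 1427880_at gave 0.09 and 0.02.

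Complex IV, cytochrome c oxidase, held the 3 largest measured log2 differences of the members, in the tissue-restricted forms Cox6b2, Cox7a1 and Cox6a2. The forebrain readings of Cox6b2 and Cox7a1 were below the percentile limit on every array, so only the size for Cox6a2 rests on both sides being mostly above it. Cox6b2 and Cox7a1 thus passed the filter only through cerebellar arrays, and their regional p-values are not independent of that selection. Cox6b2, known as the testis form of subunit 6b, read 713 to 1077 in the cerebellum (median 981) and 218 to 512 in the forebrain (median 340). All 10 cerebellar arrays were above the percentile limit and no forebrain array was, so the measured 2.61-fold difference (log2 1.39, SE 0.12, limma adjusted p = 3.57e-08) is also given against that limit, where it was at least 1.35-fold. Cox7a1, the heart and skeletal muscle form of subunit 7a, read 333 to 812 in the cerebellum (median 552) and 232 to 339 in the forebrain (median 270). The ranges overlapped only at 333 to 339, with a log2 difference of 0.98 (SE 0.10, limma adjusted p = 3.96e-07); it was above the limit on 3 cerebellar arrays, all knock-in, and on no forebrain array, so no fold is given. Cox6a2, the muscle form of subunit 6a, went the other way: it read 406 to 1180 in the cerebellum (median 763) and 1124 to 2153 in the forebrain (median 1569). Only the edges of those ranges met, and the forebrain was 1.93-fold higher (log2 -0.95, SE 0.16, limma adjusted p = 9.57e-05). Of the 8 skeletal muscle genes listed as a check, Myh4, Mylpf, Tnnc2, Tnnt3 and Mb were below the limit on every array. The other 3 were tested: Pvalb, a calcium buffer that neurons also express, was higher in the cerebellum (log2 3.32), the actin gene Acta1 was lower (-2.02) and the creatine kinase gene Ckm gave -0.01 without a call. The summed intensity of the 8 genes was 48538 to 67110 in the cerebellum and 7250 to 10297 in the forebrain. Of the 3 genes tested only Pvalb was higher in the cerebellum, so the higher sum there does not stand for the listed genes together. The part of these genes in the differences of the muscle forms was not tested.

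**Figure D2:**
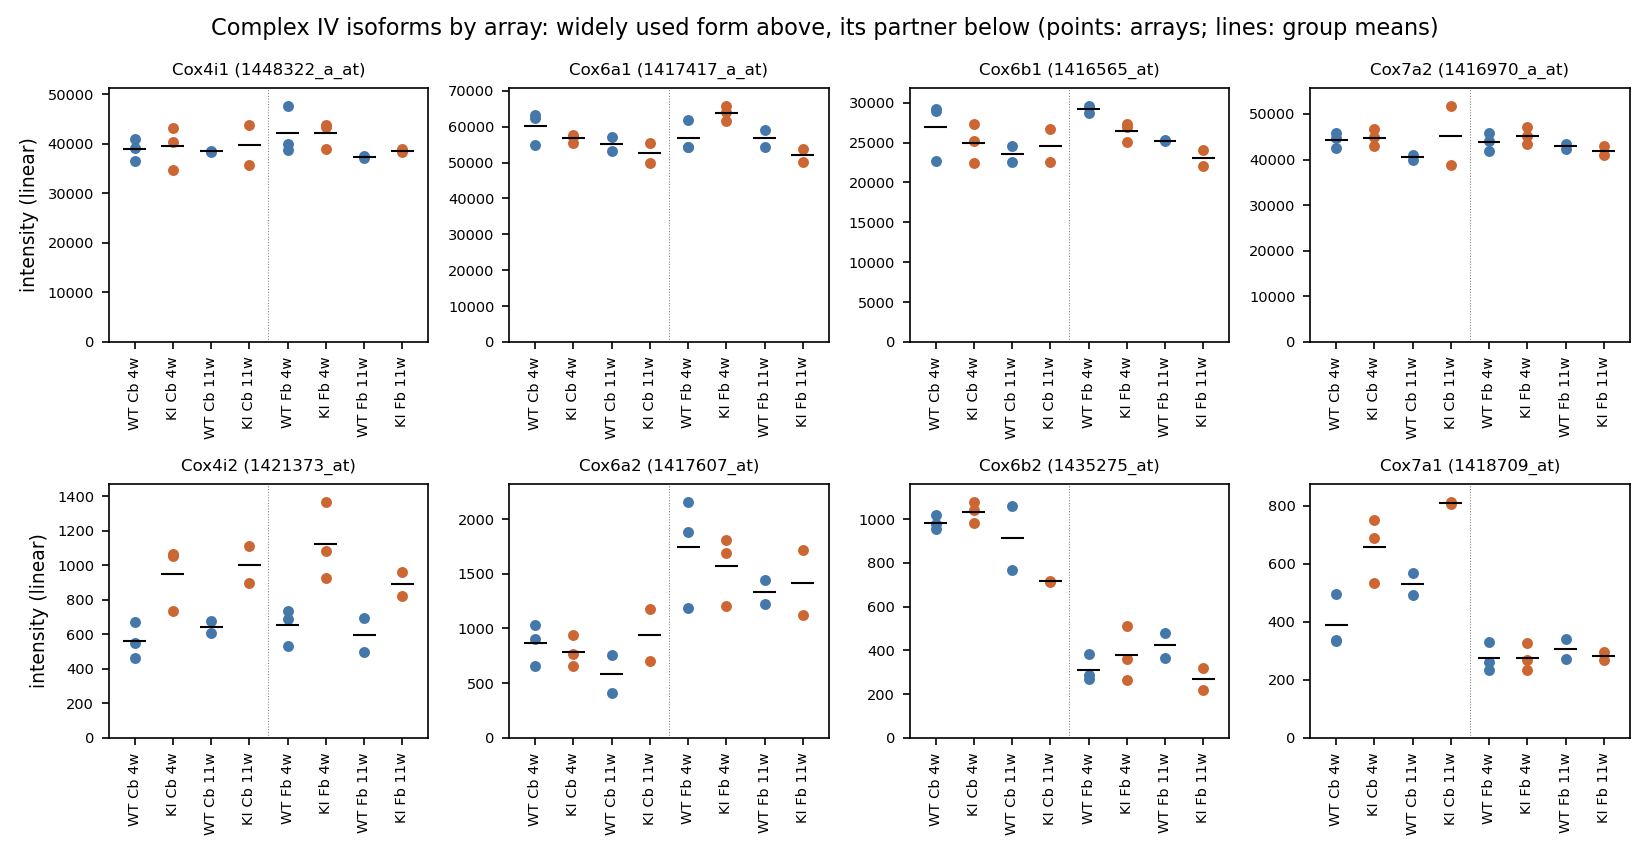
Intensity on each array of the ubiquitous complex IV forms Cox4i1, Cox6a1, Cox6b1 and Cox7a2 above the restricted forms Cox4i2, Cox6a2, Cox6b2 and Cox7a1, by group; each point is 1 array, wild type blue and knock-in orange, and lines are group means. Cox6b2 and Cox7a1 sit higher in the cerebellum and Cox6a2 in the forebrain, and none of the ubiquitous forms was called.

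None of the ubiquitous forms of the same subunits was called. Cox4i1, the common form of subunit 4, read 34770 to 43732 in the cerebellum (median 38808) and 37175 to 47511 in the forebrain (median 38899), with a log2 difference of -0.03 (SE 0.06). The probe sets of Cox6a1 gave -0.03 and -0.15 (limma adjusted p = 0.0509 for the latter), those of Cox6b1 -0.06 and -0.05, and those of Cox7a2 0.00 and 0.06. After cyclic loess, the first of these Cox6a1 values turned to 0.14 and passed the threshold, so no direction is given for it. Cox4i2, the lung form of subunit 4, gave -0.04 without a call. Among the remaining subunits, Cox5a was higher with 1415933_a_at (0.23) and 1448153_at (0.30) and gave 0.18 without a call with 1439267_x_at, and Ndufa4, now counted with complex IV, was higher by 0.23. Cox7c (1459885_s_at) read 712 to 1090 in the cerebellum and 450 to 703 in the forebrain, with no overlap and a log2 difference of 0.60 (SE 0.08), though it is a dim probe set that was above the limit on 12 of 20 arrays. The 5 tested probe sets of Cox5b ran from -0.12 to 0.01 and those of Cox6c gave -0.10 and -0.19, all without a call. Cox8a was lower with 1416112_at (-0.22) and gave -0.17 without a call with 1448222_x_at. Cox7a2l, a supercomplex assembly factor related to subunit 7a2, was lower with 1432264_x_at (-0.29) and 1432263_a_at (-0.25), and 1421772_a_at gave -0.15 without a call.

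In complex V, 11 of the 27 probe sets tested were higher in the cerebellum, among them subunits of the catalytic head, and 2 were lower. Atp5o, the protein that joins the head to the stalk, read 19272 to 25918 in the cerebellum (median 21988) and 14996 to 18797 in the forebrain (median 16747) with 1416278_a_at. No forebrain array reached the lowest cerebellar one, and the log2 difference was 0.40 (SE 0.07, limma adjusted p = 7.77e-05); 1437164_x_at gave 0.21 without a call. The catalytic beta subunit Atp5b was higher by 0.26 (SE 0.06) and the alpha subunit Atp5a1 by 0.29 (SE 0.06) with 1423111_at, while its 1449710_s_at and 1420037_at gave 0.14 and 0.27 without a call. Of the 3 genes that encode the same ring subunit c, Atp5g3, whose upstream region is printed above, was higher by 0.19 (limma adjusted p = 0.0181), and Atp5g1 and Atp5g2 gave 0.07 and 0.10 without a call. Atp5e, the epsilon subunit of the central stalk, was higher by 0.18. The 2 probe sets called lower, named here after their values were seen, were of Atp5d, the delta subunit of the same stalk (-0.15, limma adjusted p = 0.0178, with 1456580_s_at), and of Atp5md (-0.22). The other Atp5d probe set gave -0.09 without a call.

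Counted by gene, 38 of 84 genes had a called member higher in the cerebellum and 11 had one lower (45.2% and 13.1%), against 35.5% and 31.3% of all 9105 genes tested. No member gene was called both ways. Among the 43 genes with several tested probe sets, 37 had all of them on the same side of 0 and 7 had all of them called. Ranges that did not overlap between the 10 and 10 arrays were found for 6 members, all higher in the cerebellum (Atp5o, Cyc1, Ndufs4, Cox6b2, Sdhc and Cox7c), against 10.1% of all probe sets higher and 9.48% lower with no overlap (19.5% in all). The motif-bearing genes are set beside 32.5% of all probe sets called higher and 27.2% called lower. For NRF1, 2 were higher and 2 lower of 14 probe sets, and for YY1 6 and 0 of 16. For GABPA the counts were 3 and 2 of 7, and for ESRRA 2 and 0 of 3.

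Array by array, the mean deviation of the 148 members from their overall means ran from -0.06 to 0.23 in the cerebellum and from -0.11 to 0.04 in the forebrain, in log2 units. The medians were 0.04 and -0.05, and the ranges overlapped. Complex II had the widest gap, with medians of 0.11 and -0.09, and complex IV the narrowest of the complexes, with -0.02 and -0.04. The highest array was knock-in cerebellum at 11 weeks replicate 2, at 0.23, while replicate 1 of that group was at -0.05. Without replicate 2 the regional calls were 39 higher and 15 lower, and without replicate 1 they were 57 and 8.

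**Figure D3:**
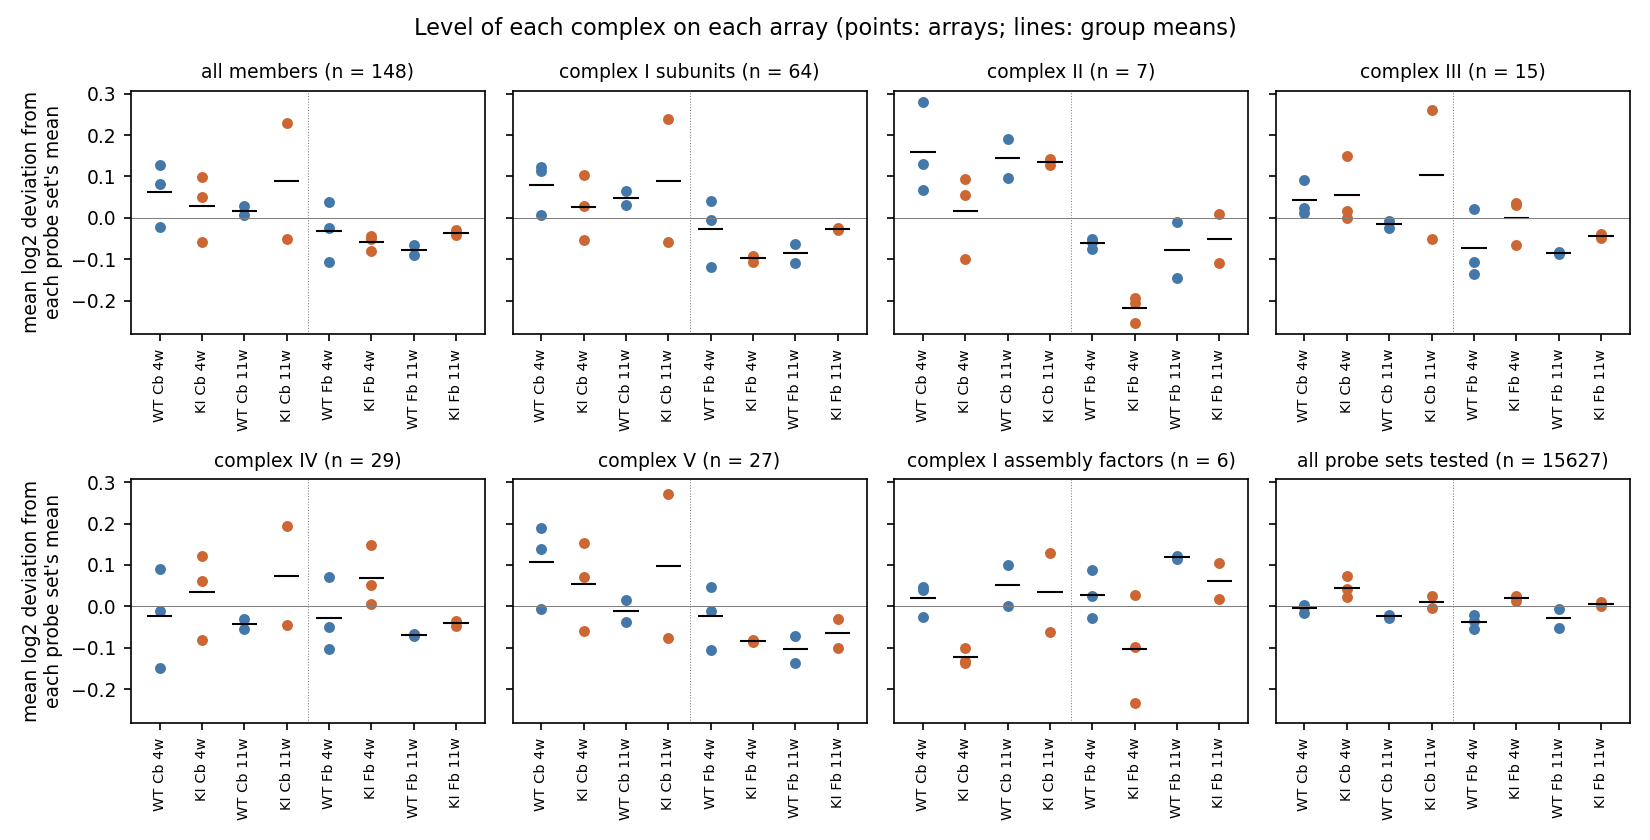
Mean log2 deviation of the members on each array from their means over all 20 arrays, for all members, each complex and all probe sets tested; points are arrays, lines are group means, wild type is blue and knock-in orange. The highest point in the panel of all members, at 0.23, is 1 of the 2 knock-in cerebellum arrays at 11 weeks.

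Other genes of mitochondrial energy supply were counted in the same comparison, from lists of known function. There, 32.5% of all probe sets were called higher and 27.2% lower. Each value is that of 1 probe set, and not every probe set of these genes is given. Of 24 probe sets of transcriptional regulators of mitochondrial genes, 17 were higher in the cerebellum and none lower (median 0.35); they included Ppargc1b, a coactivator (1.10, limma adjusted p = 5.61e-09), Nrf1 (1.40 with 1420978_at, 0.35 and 0.40 with the other two probe sets), Gabpa (0.76 with 1450664_at) and Gabpb1 (0.79 with 1436232_a_at). Mitochondrial carriers and electron-transfer proteins had 13 higher and 1 lower of 26, among them Etfa (0.58), and the pyruvate dehydrogenase and citrate cycle list 12 and 7 of 27, with Idh3g higher (0.44) and Pdha1 lower (-0.49 and -0.39). Other assembly factors had 8 and 6 of 26, mitochondrial ribosomal proteins 12 and 13 of 111, and import proteins 4 and 9 of 39. Glycolysis was on the other side, with 6 higher and 14 lower of 27 (median -0.24); Ldha, lactate dehydrogenase A, gave -0.95 and Pfkl, the liver form of phosphofructokinase, -0.83 and -0.64, while Aldoc was higher by 0.54. Cell type markers also moved with region: all 12 granule neuron and all 13 Purkinje cell probe sets tested were higher in the cerebellum, as were 13 of 22 astrocyte, 17 of 21 oligodendrocyte and all 7 choroid plexus probe sets, while 15 of 16 microglial and 5 of 6 pyramidal neuron probe sets were lower. The summed intensity of the 8 granule neuron genes measured was 146347 to 172969 in the cerebellum and 10517 to 12905 in the forebrain, and that of the 8 Purkinje cell genes 237026 to 309668 and 47926 to 75464. The part of these cell types in the members' differences was not tested.

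In wild-type mice at 4 weeks, where no label conflicts, 18 members were higher in the cerebellum and 4 lower. That is 14.9% of the 148, against 39.5% of all probe sets (21.7% higher and 17.8% lower). The largest were Cox6b2 (1.62, limma adjusted p = 1.23e-05), Ndufa12 (0.64 with 1418814_s_at), Cox7c (0.62), Ndufs4 (0.58 with 1418117_at) and Uqcrb (0.50 with 1416337_at), and Cox6a2 (-0.98), Ndufb9 (-0.45), Cox7a2l (-0.38 with 1432264_x_at) and Ndufaf7 (-0.35) were the lower ones. Without wild-type cerebellum at 4 weeks replicate 3, 12 members were called. With quantile normalisation the counts were 31 higher and 5 lower, and with cyclic loess 35 and 5.

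The second comparison was of age, 11 against 4 weeks, within each region. No member was called in the cerebellum, against 1.75% of all probe sets, and the members' median difference was 0.01. An unadjusted p under 0.05 was found for 8 of the 148 members, against 2424 of all 15627 probe sets. The lowest p of the members belonged to Cox7a2l (1432264_x_at, 0.34, SE 0.09, limma adjusted p = 0.0678), followed by Ndufab1 (1428160_at, 0.36) and Cox7a1 (0.38). Without knock-in cerebellum at 4 weeks replicate 2 that Cox7a2l probe set was called (0.39, limma adjusted p = 0.0411). In the forebrain no member was called either, against 0.096% of all probe sets, and the members' median was -0.01. There 10 members had an unadjusted p under 0.05, against 1826 of all 15627 probe sets. The members with the lowest p were Uqcr11 (-0.34, SE 0.10, limma adjusted p = 0.214), Atp5g1 (-0.42) and Ndufa7 (-0.28 with 1436567_a_at). The test of whether the change with age differed between regions called no member (0.0512% of all probe sets). Ndufs4 was the only member with an unadjusted p under 0.05 (1418117_at, -0.34, limma adjusted p = 0.713), against 992 of all 15627 probe sets.

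The third comparison set knock-in against wild type. Averaged over the 4 pairs of groups, 12 members were higher in knock-in mice and 9 lower, which is 14.2% of the 148 against 23.7% of all probe sets (15.0% higher and 8.65% lower). The members' median difference was 0.01, against 0.03 over all probe sets. Of the 148 members 77 lay above 0, against 8763 of all 15627 probe sets. Complex I subunits had 5 higher and 4 lower of 64, assembly factors 1 and 1 of 6, complex II none of 7, complex III 1 and 2 of 15, complex IV 4 and 1 of 29, and complex V 1 and 1 of 27. The split between higher and lower changed with the scaling, to 11 and 7 with quantile normalisation and 8 and 10 with cyclic loess. It also changed without knock-in cerebellum at 11 weeks replicate 2 (6 and 11) or replicate 1 (11 and 4), and the count fell to 13 without wild-type cerebellum at 11 weeks replicate 2 or wild-type forebrain at 11 weeks replicate 1. The median intensity of an array also moved with genotype, at 1064 to 1180 on knock-in arrays and 979 to 1072 on wild-type arrays, and its part in these differences was not tested.

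Cox4i2, the lung form of complex IV subunit 4, was higher in knock-in mice in every pair of groups. In the cerebellum at 4 weeks it read 463, 670 and 550 in wild type and 1055, 734 and 1069 in knock-in, and at 11 weeks 610 and 677 against 1111 and 898. In the forebrain at 4 weeks it read 691, 531 and 736 in wild type and 1085, 1366 and 926 in knock-in, and at 11 weeks 497 and 697 against 820 and 960. All knock-in arrays were above all wild-type arrays of their own pair. The log2 difference was 0.68 (SE 0.11, limma adjusted p = 0.00106), from 0.58 to 0.77 over the pairs. It is a dim probe set: all 10 knock-in arrays were above the percentile limit and 5 wild-type arrays were. Cox4i1, the common form, gave 0.03 without a call.

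Ndufaf4, a complex I assembly factor with an NRF1 core in the sequence printed above, had the lowest adjusted p of the members and was lower in knock-in mice. With 1427997_at the cerebellum at 4 weeks read 3277, 2934 and 3536 in wild type and 2073, 2182 and 2357 in knock-in, and at 11 weeks 2716 and 2949 against 1985 and 2228. The forebrain at 4 weeks read 2635, 2910 and 2493 in wild type and 1868, 2229 and 2254 in knock-in, and at 11 weeks 2715 and 2750 against 2021 and 1653. The highest knock-in array, at 2357, was below the lowest wild-type array, at 2493, across regions and ages as well. The log2 difference was -0.47 (SE 0.06, limma adjusted p = 0.000372), and the 4 pairs gave -0.55, -0.43, -0.34 and -0.58. The gene's other probe set, 1435333_at, gave -0.16 without a call (limma adjusted p = 0.376).

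**Figure D4:**
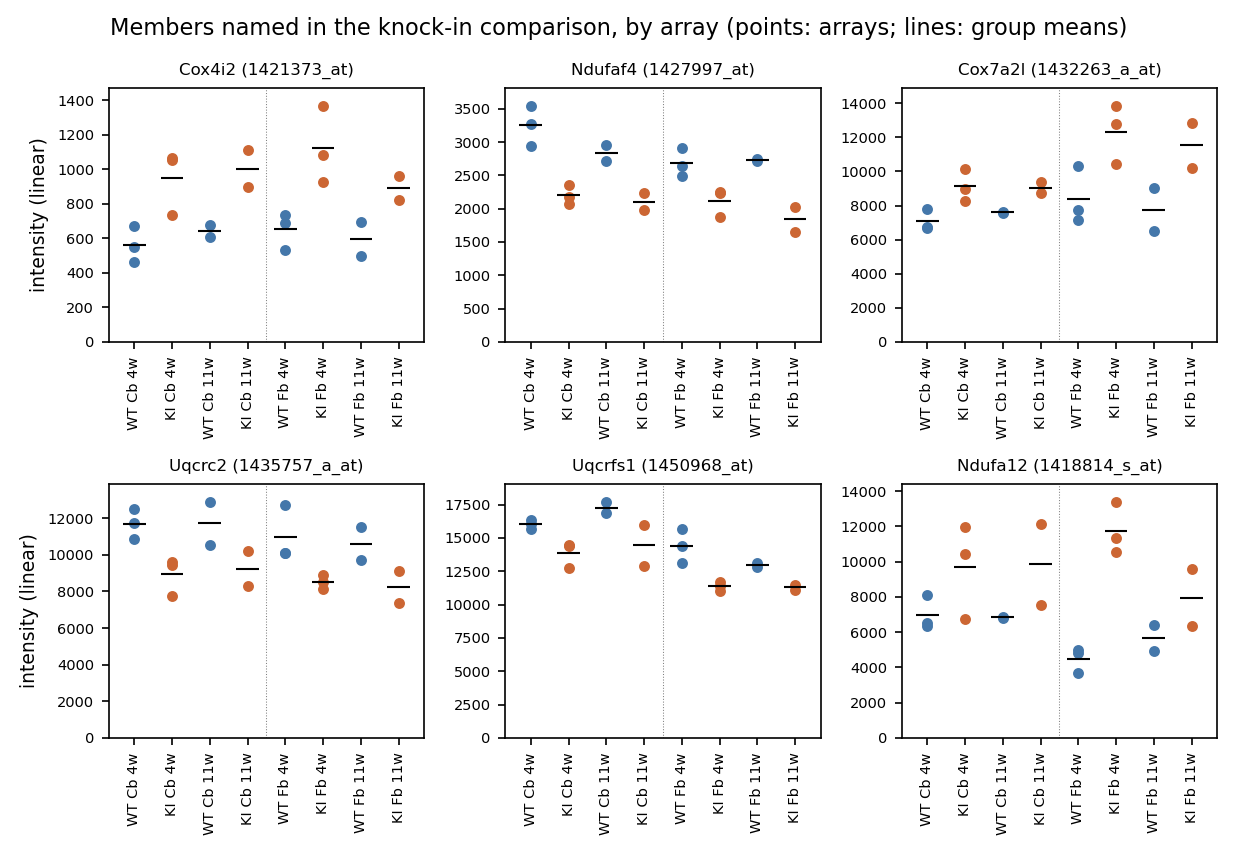
Intensity on each array of Cox4i2, Ndufaf4, Cox7a2l, Uqcrc2, Uqcrfs1 and Ndufa12 in the 8 groups; each point is 1 array, wild type blue and knock-in orange, and lines are group means. Knock-in arrays sit above wild-type arrays for Cox4i2 (log2 difference 0.68) and below them for Ndufaf4 (-0.47).

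Cox7a2l, the supercomplex factor, was higher in knock-in mice with 1432263_a_at. In the cerebellum it read 7801, 6751 and 6709 in wild type and 10153, 8970 and 8294 in knock-in at 4 weeks, and 7647 and 7568 against 8741 and 9372 at 11 weeks. In the forebrain it read 10313, 7144 and 7723 against 12768, 13823 and 10436 at 4 weeks, and 9004 and 6506 against 10218 and 12869 at 11 weeks. Within each pair the knock-in arrays were the higher ones, and in the forebrain at 4 weeks the gap was narrow, since 1 wild-type array read close to the lowest knock-in array. The log2 difference was 0.44 (SE 0.09, limma adjusted p = 0.0039). The probe sets 1421772_a_at and 1432264_x_at gave 0.28 and 0.05 without a call.

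Both complex III members called lower, Uqcrc2 and Uqcrfs1, were separated in all 4 pairs. Uqcrc2, a core protein, read 11748, 12500 and 10870 in wild-type and 9615, 7735 and 9421 in knock-in cerebellum at 4 weeks, and 10560 and 12863 against 8290 and 10205 at 11 weeks, with 1435757_a_at. In the forebrain it read 12712, 10097 and 10075 against 8139, 8911 and 8517 at 4 weeks, and 9718 and 11498 against 7390 and 9101 at 11 weeks. Knock-in arrays were the lower ones within each pair (log2 difference -0.36, SE 0.08, limma adjusted p = 0.0046), but 1428631_a_at, the other probe set of Uqcrc2, gave 0.15 without a call (limma adjusted p = 0.0859). Uqcrfs1, the Rieske protein, read 16069, 15637 and 16314 against 14496, 14389 and 12750 in the cerebellum at 4 weeks, and 16852 and 17668 against 12929 and 15948 at 11 weeks, wild type first. In the forebrain it read 15702, 14399 and 13082 against 11023, 11418 and 11668 at 4 weeks, and 12821 and 13140 against 11452 and 11120 at 11 weeks. No knock-in array reached a wild-type array of its pair, and the log2 difference was -0.25 (SE 0.06, limma adjusted p = 0.00568). Ranges that did not overlap in the same direction in all 4 pairs were found for these 5 members, 2 higher and 3 lower, against 1.54% and 0.998% of all probe sets (2.54% in all).

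Ndufa12, an accessory subunit of complex I, gave the largest difference of all members with 1418814_s_at, and the difference was largest in the forebrain at 4 weeks. There it read 3679, 5000 and 4805 in wild type and 11354, 13358 and 10528 in knock-in. At 11 weeks in the forebrain it read 6396 and 4947 against 6332 and 9558, and in the cerebellum 6522, 6349 and 8083 against 11987, 6713 and 10410 at 4 weeks and 6870 and 6802 against 12111 and 7561 at 11 weeks. Groups were apart in the forebrain at 4 weeks and in the cerebellum at 11 weeks, and overlapped in the remaining pairs. Among all 15627 probe sets, 2690 were higher without overlap in the former pair and 4205 in the latter. Over all pairs the log2 difference was 0.69 (SE 0.13, limma adjusted p = 0.0022), and for the forebrain at 4 weeks it was 1.39 (SE 0.23, limma adjusted p = 0.00506). The other tested probe sets of Ndufa12 gave 0.07 and -0.05 over all pairs, without a call.

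Cox7a1, the muscle form of subunit 7a, was higher in knock-in than in wild-type cerebellum. In the cerebellum it read 495, 337 and 333 in wild type and 689, 753 and 533 in knock-in at 4 weeks, and 570 and 491 against 812 and 808 at 11 weeks. Every knock-in array was above the wild-type arrays of its pair. Of all 15627 probe sets, 1752 were likewise higher without overlap in the cerebellum at 4 weeks and 4205 at 11 weeks. In the forebrain the 10 arrays read 232 to 339, all below the percentile limit, as were all wild-type arrays. Over both ages the cerebellar log2 difference was 0.67 (SE 0.14, limma adjusted p = 0.0202), and it was not called with quantile normalisation or cyclic loess. The probe set passed the filter only through 3 knock-in cerebellar arrays, so its p-value is not independent of that selection. Not all knock-in arrays were above the limit either, so no fold is given. Of the muscle genes, Ckm was higher (0.44) and Acta1 lower (-0.36) over the 4 pairs, and their part in the Cox7a1 difference was not tested. The test of the difference between regions gave 0.72 for Cox7a1 and did not pass (limma adjusted p = 0.193).

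The other called members of the average over pairs were smaller or dimmer. Uqcrq was higher by 0.67 with 1437134_at and Atp5a1 by 0.45 with 1420037_at, probe sets above the limit on 6 and 10 of the 20 arrays. Ndufs4 (0.32 with 1438166_x_at) and Cox8c (0.30), a testis form of subunit 8, completed the 8 largest rises with Cox7a1 (0.31). The falls besides those above were Cox7c (-0.33), Ndufb7 (-0.28 with 1416417_a_at), Ndufs8 (-0.24 with 1423908_at and -0.23 with 1434579_x_at), Atp5e (-0.22) and Ndufab1 (-0.22 with 1428159_s_at).

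Probe sets of 1 gene often went different ways in this comparison. Of the 43 genes with several tested probe sets, 17 had all of them on the same side of 0, against 37 for the same genes between regions, and none had all of them called. In 11 of these genes at least 1 probe set was called and at least 1 was not. Besides Ndufa12, the genes Ndufab1 (-0.22 and 0.12), Ndufb7 (-0.28 and 0.05), Uqcrc2 (-0.36 and 0.15), Ndufs4 (0.32, -0.03 and -0.07), Uqcrq (0.67, 0.23 and -0.09) and Atp5a1 (0.45, 0.02 and -0.05) were called in 1 probe set while another had the opposite sign. For Ndufs8 the called values were beside -0.09, 0.23, -0.05 and -0.03, and for Ndufc2 0.24 was beside 0.02. Called values of these genes hold for the stretch of transcript that the named probe set reads.

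**Figure D5:**
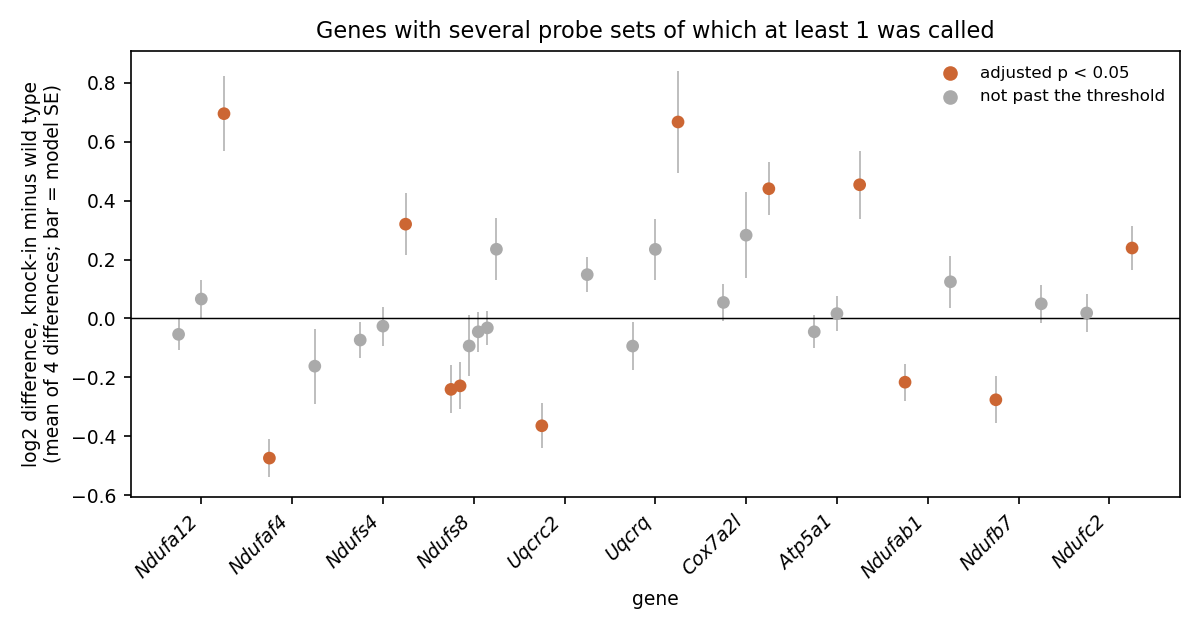
Log2 difference, knock-in minus wild type over the 4 pairs of groups, of every tested probe set of the 11 genes with several probe sets of which at least 1 was called; bars are 1 model SE. Within each gene a called probe set sits beside at least 1 that was not called, such as -0.36 beside 0.15 for Uqcrc2.

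Within single pairs few members passed. Knock-in forebrain at 4 weeks had 3 higher and 2 lower (3.38%, against 7.37% of all probe sets, 4.95% higher and 2.42% lower): Ndufa12, Cox4i2 (0.77, limma adjusted p = 0.0303) and Cox7a2l (0.56), and Sdhc (-0.40 with 1448630_a_at) and Ndufab1 (-0.39 with 1428159_s_at). That Sdhc probe set read 7777, 7134 and 6281 in wild-type and 4683, 5649 and 5748 in knock-in forebrain at 4 weeks. The knock-in arrays were all the lower ones there. The gene's other probe set, 1435986_x_at, went the other way on the same arrays, at 7246, 7350 and 6160 in wild type and 8098, 8366 and 8436 in knock-in, also without overlap; its log2 difference of 0.27 was not called (limma adjusted p = 0.155). In that pair, 2690 of all 15627 probe sets were higher without overlap and 1800 lower, and of the 148 members 16 and 24. Leaving out knock-in replicate 1, knock-in replicate 2 or wild-type replicate 2 of the forebrain at 4 weeks left 1 call. No member was called in the cerebellum at 4 weeks (against 0.0512% of all probe sets; 9 at an unadjusted p under 0.05), where Ndufaf4 had the lowest p (-0.55, limma adjusted p = 0.0663), in the cerebellum at 11 weeks (0.346%; 11) or in the forebrain at 11 weeks (0.864%; 9). Over all 15627 probe sets, 2072, 2306 and 2440 had an unadjusted p under 0.05 in these pairs, in that order. Without knock-in cerebellum at 4 weeks replicate 2, Uqcrq was called in the cerebellum at 4 weeks (1.14 with 1437134_at, limma adjusted p = 0.0436).

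Over both ages, the cerebellum had 2 members higher and 1 lower (2.03%, against 3.35% of all probe sets, 2.25% higher and 1.10% lower): Cox4i2 (0.68, limma adjusted p = 0.0293), Cox7a1 and Ndufaf4 (-0.49, limma adjusted p = 0.0117). The count was 1 without knock-in replicate 1, knock-in replicate 2 or wild-type replicate 2 of the cerebellum at 11 weeks. The forebrain had 4 and 4 (5.41%, against 13.5%, 8.36% higher and 5.13% lower): Ndufa12 (0.93), Cox4i2 (0.67), Cox7a2l (0.57) and Ndufa1 (0.31) rose, and Ndufaf4 (-0.46), Uqcrc2 (-0.36), Sdhc (-0.29) and Uqcrfs1 (-0.27) fell. That count was 2 without knock-in forebrain at 11 weeks replicate 2, 3 without wild-type forebrain at 11 weeks replicate 1, and 5 without knock-in replicate 2 or wild-type replicate 1 at 4 weeks or wild-type replicate 2 at 11 weeks. No member's knock-in difference itself differed between regions (0.282% of all probe sets called) or between ages (0.0% called) in limma. An unadjusted p under 0.05 was found for 1 member between regions, against 1428 of all 15627 probe sets. Between ages it was found for 7 members, against 1173.

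The related lists over the 4 pairs are set beside 15.0% of all probe sets called higher and 8.65% called lower. Each value is that of 1 probe set, and not every probe set of these genes is given. Mitochondrial ribosomal proteins had 19 higher and 2 lower of 111. Mrpl28 (0.32), Mrpl44 (0.44 and 0.39) and Mrpl17 (0.57) were higher and Mrpl3 (-0.28) was lower. Import proteins had 7 and 1 of 39, with Tomm7 higher by 0.57 and Tomm20 at -0.38 with 1423080_at, and other assembly factors 5 and 1 of 26, with Bcs1l, which inserts the Rieske protein, higher by 0.46. The regulators had 3 and 4 of 24. A probe set of Ppargc1a, a coactivator of mitochondrial biogenesis with several probe sets on the array, was lower (-0.64, limma adjusted p = 0.00137). Gabpb1 was lower too (-0.74 with 1419761_a_at), and Esrrg was higher by 0.43. Glycolysis had 2 and 4 of 27, with Ldhb lower (-0.59 and -0.34), the citrate cycle list 3 and 1 of 27 and the carriers 1 and 0 of 26. Of the cell type markers, Purkinje cell probe sets had 1 higher and 4 lower of 13 and granule neuron probe sets 1 and 3 of 12, and no oligodendrocyte (of 21), pyramidal neuron (of 6) or choroid plexus (of 7) probe set was called. Counts of the astrocyte, microglial, vascular and blood markers are not given here. The summed Purkinje cell intensity was 237026 to 274618 in knock-in and 297107 to 309668 in wild-type cerebellum, and its part in the members' differences was not tested.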

How the data were processed

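Total RNA was measured on Affymetrix arrays. The deposited values are linear intensities per probe set, 1 table per array. The software and normalization the authors used were not given in the sources used here. Intensities, not scaled further, were tested as log2(intensity + 16) in limma 3.58.1 (R 4.3.3): 8 group means over all 20 arrays, 12 residual degrees of freedom, moderated variances, and Benjamini-Hochberg adjustment over the 15627 probe sets above the 40th percentile of their array on at least 2 arrays. Gene symbols came from the platform annotation; all 157 members matched RefSeq by Entrez identifier. The number of arrays limits the precision. Named members follow 1 rule: up to 8 called rises and 8 called falls in each comparison, the 3 lowest p where fewer than 4 were called, and a list of core and isoform subunits. The members and lists were chosen with earlier results of these data known. Scripts were tested on simulated data.

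Alternatives were quantile normalisation, cyclic loess, a larger offset, no filter, 1 probe set per gene, the compared groups alone, a replicate block, each array left out, and, chosen after seeing the labels' conflict, without the 7 arrays it touches.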

Additional observations from a re-analysis of the deposited data

How the results depend on the processing

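Of 76 named values that were called, 44 kept their call under every alternative run for them and 32 lost it under at least 1, while 19 of 108 named values without a call passed elsewhere. In the average over the 4 knock-in pairs, Ndufa12 (1418814_s_at), Cox4i2, Uqcrq (1437134_at), Cox7a2l (1432263_a_at), Ndufaf4 (1427997_at), Uqcrc2 (1435757_a_at), Cox7c and Uqcrfs1 kept their calls under all of them. The regional value of Cox6a1 (1417417_a_at) changed sign with cyclic loess, to 0.14; the cause was not tested. In wild-type mice at 4 weeks, 36 members were called between regions with quantile normalisation and 40 with cyclic loess, against 22. For knock-in forebrain at 4 weeks the 5 calls were 3 without a filter, 3 with quantile normalisation, 3 with cyclic loess and 1 with the compared groups alone. For the forebrain over both ages the 8 calls were 4 without a filter, 5 with the compared groups alone and 5 with 1 probe set per gene, and over all 4 pairs the 21 calls were 13 with 1 probe set per gene, where fewer probe sets were tested. The cause of the other changes was not tested. Leaving out each array in turn gave 54 to 67 regional calls, 12 to 24 in wild-type mice at 4 weeks, 0 to 1 for age in the cerebellum, 0 to 1 for knock-in cerebellum and 1 to 5 for knock-in forebrain at 4 weeks, 1 to 4 and 2 to 9 for those regions over both ages, 13 to 22 over all 4 pairs, and 0 to 0 in the comparisons not named here. Replicate numbers are shared between groups. Over 10 pairs of same-numbered arrays across genotypes, the correlations of their deviations from group means ran from -0.10 to 0.05. Across regions they ran from -0.02 to 0.11, with 1 of 10 pairs over 0.1. In groups of 2 arrays both numbers must give the same correlation, so those pairs are not independent. With the replicate number as a block the calls were 62 between regions (57 with the number taken within genotype and age), 21 and 19 in wild-type mice at 4 weeks, 4 for knock-in forebrain at 4 weeks, 4 for the cerebellum and 8 for the forebrain over both ages, 21 over all 4 pairs and 0 in the interactions; the block could not be fitted for age, since the numbers are nested in it. Low signal limits Cox6b2, Cox7a1, Cox7c, Cox4i2, Uqcrq (1437134_at) and Atp5a1 (1420037_at), which were near the percentile limit.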
